A study of Mus musculus with 6 samples.

Results

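Integrins are the receptors through which a bone-forming cell holds on to its matrix. Each receptor pairs an alpha subunit, which largely sets the ligand, with a beta subunit, whose short tail inside the cell recruits talin and kindlin and so connects the matrix to actin. Clustered integrins activate focal adhesion kinase, the product of *Ptk2*, and in osteoblasts this adhesion to collagen and fibronectin is known to be needed for survival and differentiation. The genes described here are 9 integrin subunits and *Ptk2*, a list of 10 genes chosen by name. All 10 were present among the 11234 genes of the RNA-seq data, and 0 were absent.

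The cells were MC3T3-E1, preosteoblasts of the mouse calvaria, labelled C57BL/6 and used at passage 4. After 24 h in serum-free medium, the cells of 3 samples received complete medium with 100 μmol/L cyanidin-3-O-glucoside (C3G), an anthocyanin pigment, for a further 24 h, and those of 3 control samples received complete medium without C3G. The labels write the unit of the dose as μm/l, and the unit of the study's methods is used here. Nothing in the labels says whether the 3 libraries of a group came from separate cultures, so p values measure the spread between these libraries only. All values are FPKM, which scales fragments to gene length and library size, so levels of different genes are on one scale. The model lengths are not given and base composition still bears on the values, so a comparison between genes is approximate. The depth of the libraries is unknown, and in RNA from whole cultures fewer expressing cells and less RNA per cell cannot be told apart.

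Control replicate 1 stood apart from the other libraries. On the log2(FPKM + 1) scale Pearson's r was 0.886 to 0.939 between it and the other 5 libraries and 0.968 to 0.992 among those 5. Its departure from the other controls followed transcript GC content (Spearman's rho 0.748 across genes, which are not independent replicates), as did that of C3G replicate 1 within the treated group (rho 0.631). Differences that move with these libraries are given without them for the 10 genes. Of 11 markers of the osteoblast lineage 10 were measured, led by *Col1a1* at 923 to 4432 FPKM, whereas the osteoblast transcription factor *Sp7* was at 0.237 to 0.857 FPKM. Of markers of other cells, 1 of 6 leukocyte genes (*Cd68*, 0.144 to 1.25 FPKM), 0 of 4 endothelial genes, 1 of 4 megakaryocyte genes (*Itga2b*, 0.806 to 1.61 FPKM) and 2 of 5 epithelial genes were measured, and the others were not analysed here. The epithelial pair was *Cdh1* and *Krt14*, with a summed level of 79.9 to 149 FPKM in the control libraries and 72.6 to 104 FPKM in the C3G libraries, nearly all of it *Krt14*.

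The beta subunits differ in the tail that binds the adaptors, and the coding part of the last coding exon, which holds the end of that tail, is shown for each from the GENCODE M21 transcripts on GRCm38. All are on the plus strand and read 5′ to 3′ up to and including the stop codon. Capitals mark in-frame codons of the NPxY motif, of which the first in each tail is the docking site of talin. Kindlin docks further along the tail, in *Itgb1* at the second marked motif. In *Itgb3* and *Itgb5* that site departs from NPxY, and such a looser motif was not searched.
Itgb1, exon 16, chr8:128732023-128732088: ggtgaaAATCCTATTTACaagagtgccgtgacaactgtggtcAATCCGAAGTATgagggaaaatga
Itgb3, exon 15, chr11:104667080-104667145: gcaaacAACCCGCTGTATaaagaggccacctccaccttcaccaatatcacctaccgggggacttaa
Itgb5, exon 15, chr16:33948657-33948752: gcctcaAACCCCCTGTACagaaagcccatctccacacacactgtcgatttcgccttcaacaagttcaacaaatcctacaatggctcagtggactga
The exon of *Itgb1* holds 2 NPxY motifs and those of *Itgb3* and *Itgb5* hold 1 each. The exons of *Itgb1* and *Itgb3* are both 66 bases long and have 31 of these bases (47.0%) in common, and that of *Itgb5* is longer, at 96 bases. The GC content of these exons is 42.4% in *Itgb1*, 51.5% in *Itgb3* and 49.0% in *Itgb5*.

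*Itgb1* (ENSMUSG00000025809.15, chromosome 8 of GRCm38, 128685654 to 128733200) encodes the beta subunit shared by the collagen, laminin and fibronectin receptors. It was the highest of the 10 genes on average, and only 1.55% of all genes had a higher mean FPKM. The untreated libraries read 89.1, 215 and 202 FPKM and the C3G libraries 145, 205 and 187 FPKM, given here and in what follows in the order of replicates 1, 2 and 3. Both replicates 1 were the lowest of their group, and the C3G values lay inside the range of the controls. *Itgb5* (ENSMUSG00000022817.14, chromosome 16, 33829665 to 33949338) encodes a vitronectin receptor subunit that pairs with the product of *Itgav*. Its FPKM was 162, 75.8 and 88.6 without C3G and 90.9, 74.6 and 87.3 with C3G. Control replicate 1 alone was high, and the other 5 libraries lay within 74.6 to 90.9 FPKM. In that same library *Itgb5* exceeded *Itgb1*, with an *Itgb1* to *Itgb5* ratio of 0.552, against ratios of 1.59 to 2.83 in the other 5.

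*Itgb3* (ENSMUSG00000020689.4, chromosome 11, 104608000 to 104670476) encodes the other vitronectin receptor beta subunit measured here, best known from platelets and osteoclasts. Its FPKM was 8.28, 11.8 and 13.9 without C3G and 21.5, 12.1 and 14.1 with C3G. The lowest value was that of control replicate 1 and the highest that of C3G replicate 1, and the groups overlapped. The ratio of *Itgb5* to *Itgb3* was 19.5 in control replicate 1 and 4.23 in C3G replicate 1. It was 6.17 to 6.42 in the other 4 libraries.

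Among the alpha subunits, *Itga5* and *Itgav* form receptors that read the RGD sequence of fibronectin and vitronectin. *Itga5* (ENSMUSG00000000555.7, chromosome 15, 103344286 to 103366763, minus strand), the fibronectin receptor alpha subunit, had 42.8, 30.4 and 28.2 FPKM without C3G and 40.5, 32.3 and 29.6 FPKM with C3G. The replicates with number 1 were the high libraries in both groups. *Itgav* (ENSMUSG00000027087.11, chromosome 2, 83724397 to 83806916, plus strand) showed the reverse, with 9.50, 15.5 and 14.5 FPKM without C3G and 10.8, 15.1 and 15.9 FPKM with C3G. An exon of *Itgav* overlaps one of *Gm13684* on the opposite strand, and how the authors treated strand in counting is not given in the sources used here. The ratio of *Itga5* to *Itgav* was 4.50 and 3.76 in control and C3G replicates 1 and 1.86 to 2.13 in the other 4 libraries.

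*Itga3* and *Itga6* encode laminin receptor subunits. *Itga3* (ENSMUSG00000001507.16, chromosome 11, 95044474 to 95076801, minus strand) had 13.2, 18.4 and 17.6 FPKM without C3G and 18.5, 22.0 and 18.4 FPKM with C3G. Every C3G library was above every control library, although C3G replicate 3, at 18.45 FPKM, was hardly above control replicate 2, at 18.40 FPKM. *Itga6* (ENSMUSG00000027111.15, chromosome 2, 71745616 to 71858416, plus strand) was lower, at 4.77, 4.55 and 5.77 FPKM without C3G and 5.11, 4.55 and 5.09 FPKM with C3G. Its highest library was control replicate 3, and the groups overlapped.

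*Itga11* and *Itga1* encode collagen receptor subunits, the first known from mesenchymal cells and fibrillar collagen. *Itga11* (ENSMUSG00000032243.8, chromosome 9, 62677826 to 62783982, plus strand) was the steadiest of the 10 genes, at 29.6, 29.4 and 28.9 FPKM without C3G and 30.8, 31.6 and 31.9 FPKM with C3G. Its highest value was 1.11 times its lowest, and again every C3G library was above every control library. *Itga1* (ENSMUSG00000042284.10, chromosome 13, 114953096 to 115101964, minus strand) was the lowest of the 10 genes, and 95.7% of all genes had a higher mean FPKM. It had 0.407, 0.703 and 0.873 FPKM without C3G and 0.956, 0.792 and 0.965 FPKM with C3G, with overlap between the groups. The ratio of *Itga11* to *Itga1* was 32.2 to 72.8 in the single libraries. An exon of *Itga1* overlaps one of *Gm49395* on the same strand, so its level depends on how the authors assigned shared reads.

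*Ptk2* (ENSMUSG00000022607.15, chromosome 15, 73205102 to 73423280, minus strand) encodes the kinase that integrins activate at focal adhesions. It had 5.87, 7.35 and 7.48 FPKM without C3G and 6.36, 6.64 and 7.27 FPKM with C3G. Its level was in the middle of the transcriptome, with 51.6% of all genes higher, and the C3G values lay inside the range of the controls.

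**Figure D1:**
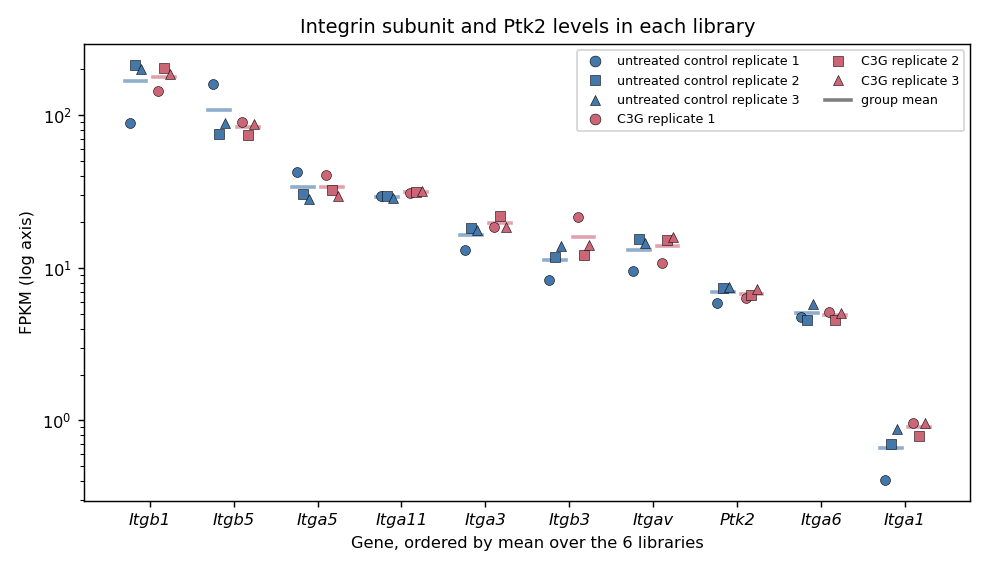
FPKM of the 9 integrin subunits and *Ptk2* in each of the 6 libraries on a log axis, with genes ordered by their mean, groups by colour, replicate numbers by marker shape and group means as lines. *Itgb1* and *Itgb5* are the highest genes and *Itga1* the lowest, and circles (replicates 1) lie apart from the squares and triangles in *Itgb1*, *Itga5* and *Itgav*.

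Ranked by mean FPKM over the 6 libraries, the order was *Itgb1*, *Itgb5*, *Itga5*, *Itga11*, *Itga3*, *Itgb3*, *Itgav*, *Ptk2*, *Itga6* and *Itga1*. Each of the 9 pairs of neighbours was compared within libraries, and 5 pairs kept the same order in all 6 libraries. These were *Itgb5* over *Itga5* (1.47 on the log2 FPKM scale, SD 0.291, n = 6), *Itga11* over *Itga3* (0.77), *Itgav* over *Ptk2* (0.97), *Ptk2* over *Itga6* (0.46) and *Itga6* over *Itga1* (2.72). The order was set on the same 6 libraries, so these comparisons are a description with no test. *Itgb1* was above *Itgb5* in 5 of 6 libraries (0.84, SD 0.886) and *Itga3* above *Itgb3* in 5 of 6. *Itga5* and *Itga11* did not differ beyond their spread (0.14, SD 0.259, with *Itga5* above in 4 of 6), and neither did *Itgb3* and *Itgav* (-0.02, SD 0.516). *Itgb3* was above *Itgav* in 1 of 6 libraries, C3G replicate 1, and without that library the difference was -0.23, so its place over *Itgav* rests on that library.

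The alpha subunits were then summed by ligand class. Their 6 FPKM values summed to 100.2, 99.0 and 95.8 without C3G and to 107, 106 and 102 with C3G. The sums of the groups did not overlap, as was so for 4.02% of all genes. *Itga3* (group means 16.4 and 19.6 FPKM) and *Itga11* (29.3 and 31.4 FPKM), whose own groups did not overlap, are part of these sums. The group means were 33.8 and 34.1 FPKM for *Itga5* and 13.2 and 13.9 FPKM for *Itgav*. For *Itga6* they were 5.03 and 4.92 FPKM and for *Itga1* 0.661 and 0.904 FPKM. The beta subunits summed to 259, 302 and 305 FPKM without C3G and to 257, 291 and 289 FPKM with C3G, where the groups overlapped. Each C3G library was below the control library of the same number in this sum. The RGD-binding subunits *Itga5* and *Itgav* held 47.7% ± 3.98 (SD, n = 3) of the summed alpha FPKM in control cells and 45.8% ± 2.03 (SD, n = 3) in C3G-treated cells. The collagen-binding subunits *Itga1* and *Itga11* held 30.5% ± 0.566 (SD, n = 3) and 30.8% ± 1.30 (SD, n = 3). For the laminin-binding subunits *Itga3* and *Itga6* the shares were 21.8% ± 3.46 (SD, n = 3) and 23.4% ± 1.44 (SD, n = 3). In each class the difference was smaller than the SD of the controls, and the sums and shares are given as a description with no test. Without control replicate 1 the difference in the laminin-binding share turned from 1.57 to -0.40 percentage points and that in the RGD-binding share from -1.94 to 0.30 percentage points. Without C3G replicate 3 that in the collagen-binding share turned from 0.38 to -0.35 percentage points.

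**Figure D2:**
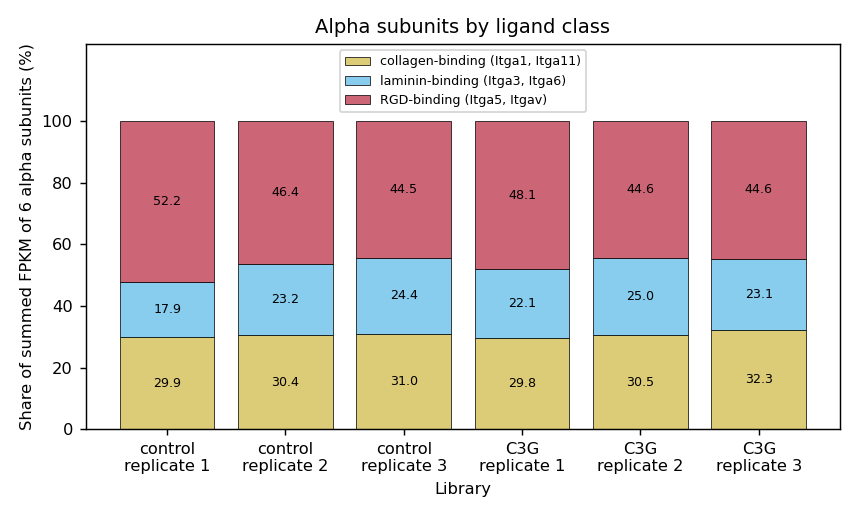
Share of the summed FPKM of the 6 alpha subunits held by the collagen-, laminin- and RGD-binding classes, in percent, as a stacked bar for each library. The RGD-binding share is 44.5% to 52.2% and is highest in control replicate 1, and the collagen-binding share is 29.8% to 32.3%.

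The question of the study, which genes respond to C3G, was put to the 10 genes with limma on log2(FPKM + 1) fitted across all genes. With a two-sided unadjusted p of 0.05 and a fold change of 1.2, limma called 0 of the 10 genes, where the background of called genes was 0.65% (73 of 11234, 45 higher and 28 lower with C3G). Quantile normalization gave 30 of each, and correcting each library for GC content gave 67 higher and 68 lower. At an unadjusted p of 0.05 alone limma again called 0 of the 10, with a background of 0.659%. After Benjamini-Hochberg adjustment 0 genes passed in the whole table, where the smallest adjusted p from limma was 0.497, and the adjusted p of each of the 10 was 0.992. With replicate number as a block limma called 169 genes (1.5%), and with the block and the GC correction 246 genes (2.19%), and 0 of the 10 in either fit.

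*Itgb3* had the largest log2 fold change among the 10, at 0.44 with a standard error of 0.273 (95% interval -0.21 to 1.09, limma p = 0.150, exact permutation p = 0.2). This rested on the replicates numbered 1. With replicates 2 and 3 only it was 0.02 (95% interval -0.28 to 0.33), and without C3G replicate 1 or without control replicate 1 it was 0.22 or 0.25. *Itgb5* was the other gene past the fold change of 1.2, at -0.29 (standard error 0.296, 95% interval -0.99 to 0.41, limma p = 0.362, exact permutation p = 0.6), and without control replicate 1 it was 0.04. Among all genes 22.3% were past this fold change. With a pseudocount of 0.1 *Itga1* (0.45) and *Itga3* (0.27) were also past it.

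*Itga3* and *Itga11* were the 2 of the 10 genes whose groups did not overlap, each higher with C3G, where 4.02% of all genes did not overlap and 2.55% did so with C3G higher. The log2 fold change of *Itga3* was 0.26 (standard error 0.183, 95% interval -0.18 to 0.69, limma p = 0.206, exact permutation p = 0.1, the smallest that 3 libraries against 3 can give). Its value was 0.35 with the GC correction, with a standard error of 0.274, or of 0.148 when the replicate block was added. It was 0.15 with replicates 2 and 3 only and 0.11 without control replicate 1. The difference of *Itga11* was small, at 0.10 on the log2 scale (standard error 0.133, 95% interval -0.22 to 0.42, limma p = 0.484, exact permutation p = 0.1). Groups that do not overlap always give this exact permutation p, so in both genes it adds nothing to the lack of overlap. With an ordinary linear model, which uses the spread of that gene alone, the standard error of *Itga11* was 0.0188 and its p was 0.00629. That p was the smallest of 149 values of the 10 genes under the 15 alternative fits. It was under 0.05, as for 0.908% of all genes, and the fold change of 1.07 was under 1.2.

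The intervals of the other genes were wide. That of *Itgb1* ran from -0.69 to 1.03 around 0.17 (limma p = 0.651, exact permutation p = 0.9), and without control replicate 1 the value was -0.23. The value of *Itga1* was 0.21 (95% interval -0.14 to 0.55, limma p = 0.202, exact permutation p = 0.2) and was 0.03 with the GC correction, 0.09 without control replicate 1, 0.07 with replicates 2 and 3 only and 0.45 with a pseudocount of 0.1 in place of 1. For *Itgav* it was 0.08 (95% interval -0.49 to 0.66), for *Itga5* 0.02 (-0.49 to 0.54), for *Itga6* -0.02 (-0.40 to 0.35) and for *Ptk2* -0.02 (-0.41 to 0.36). These intervals reach past a fold change of 1.2, which is 0.26 on the log2 scale, in both directions in *Itgb1*, *Itgb5*, *Itgav*, *Itga5*, *Itga6* and *Ptk2*. In this fit, without the replicate block, a change of that size either way thus lay within their error. With the block the interval of *Itgb5* ended at 0.25 and that of *Itgav* began at -0.23. With the block and the GC correction the intervals ended at 0.19 in *Itgb5*, 0.25 in *Itgav*, 0.14 in *Itga6* and 0.11 in *Ptk2*. That of *Itga5* began at -0.13. Each of these ends lay short of that size. Of the 10 genes 7 had a log2 fold change above 0, as had 62% of all genes, and their median was 0.09 against 0.06 over all genes.

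Same-numbered libraries departed together across all genes, so each C3G library was also set beside the control library of its number. The pairing was inferred from these same data. Of the 10 genes 6 departed the same way in both replicates 1. *Itgb3* was among the others, at -0.57 in control replicate 1 and 0.68 in C3G replicate 1, each against replicates 2 and 3 of its group. The C3G library was the higher one in all 3 pairs for 4 of the 10 genes (*Itgb3*, *Itga1*, *Itga3* and *Itga11*), as for 14.2% of all genes, and the lower one in all 3 pairs for *Itgb5*, as for 11.6% of all genes. In *Itgb3* and *Itgb5* nearly all of the difference came from pair 1, at 8.28 against 21.5 FPKM and 162 against 90.9 FPKM, while pairs 2 and 3 differed by little. With 3 pairs an exact sign-flip test cannot give a p under 0.25.

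**Figure D3:**
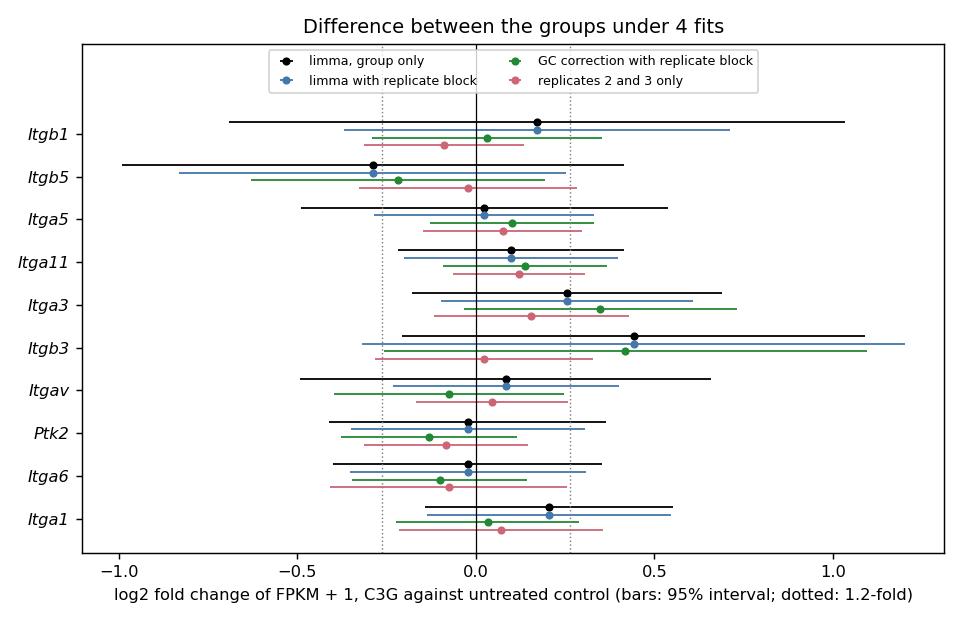
log2 fold change of FPKM + 1, C3G against untreated control, with 95% intervals for the 10 genes under 4 fits. All intervals include 0, and for *Itgb3* and *Itgb5* the value with replicates 2 and 3 only (0.02 and -0.02) lies near 0.

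The members' departures in replicates 1 were compared with their GC content, which ran from 42.8% in *Itga1* to 57.9% in *Itga3* (longest transcript). Control replicate 1 was the lowest of the 6 libraries for 6 of the 10 genes and the highest for 2. Across all genes its median departure from the other controls ran from -1.24 in the lowest of 20 GC bins to 0.81 in the highest, on the log2(FPKM + 1) scale. *Itgb1*, with 44.8% GC, departed by -1.22 and *Itgav*, with 43.5% GC, by -0.61, whereas *Itgb5*, with 57.0% GC, departed by 0.97 and *Itga5*, with 57.3% GC, by 0.53. *Itga3* went the other way, with 57.9% GC and a departure of -0.42, and *Itga11*, with 55.5% GC, departed by only 0.02. *Itgb3*, with 52.1% GC, departed by -0.57 and by -0.61 after the GC correction. Over the 10 genes Spearman's rho between GC content and departure was 0.527 for control replicate 1 and 0.394 for C3G replicate 1, as a description of genes that share these libraries. The GC correction made the departure of control replicate 1 larger in size in 5 of the 10 genes, and the median size moved from 0.48 to 0.41. It brought *Itgav* to 0.19, *Itga5* to 0.08 and *Itgb1* to -0.55. *Itga3* went to -0.93, *Itga1*, with a departure of -0.34 as deposited, to 0.52, and *Itga11* to -0.30. The part of GC content in the differences between the groups was not tested further.

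**Figure D4:**
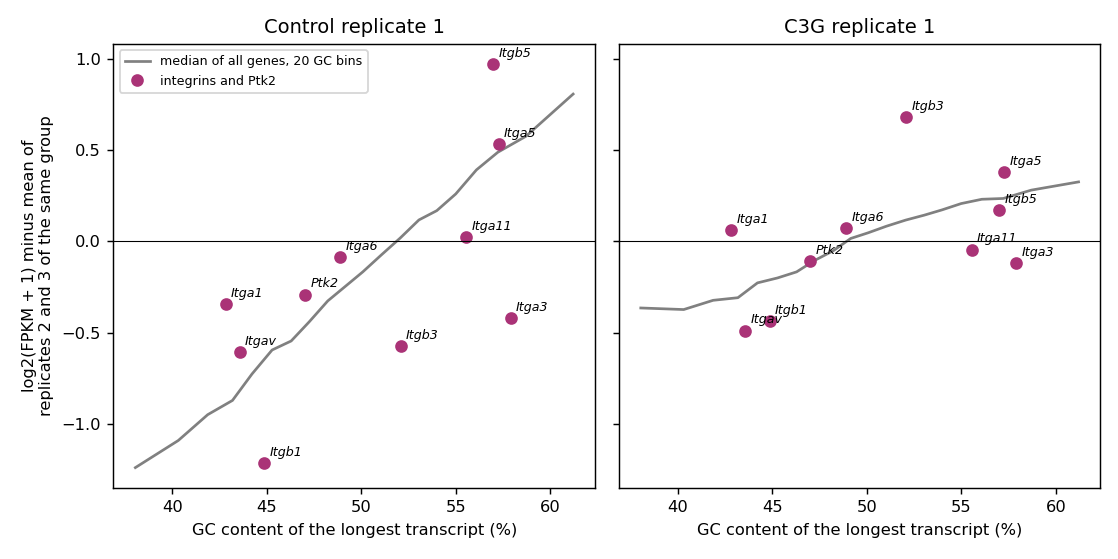
Departure of control replicate 1 (left) and C3G replicate 1 (right) from the mean of replicates 2 and 3 of the same group, in log2(FPKM + 1), against the GC content of the longest transcript in percent, for the 10 genes (points) and as the median of all genes in 20 GC bins (line). In control replicate 1 *Itga5* lies on the line, and *Itga3* lies below it in both panels.

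The genes whose values over the 6 libraries were most like those of *Itgb1* (Pearson's r of log2(FPKM + 1), among 10448 other genes) were *Klhl7*, *Mga*, *Rab2a*, *Zfp719* and *Taf1d*, with r from 0.9991 to 0.9998 and a GC content of 40.2% to 44.4%. Those most like *Itgav* were *Atm*, *Zgrf1*, *Adamtsl3*, *Ufl1* and *Usp31*, with r from 0.9964 to 0.9978 and a GC content of 40.5% to 49.2%. All these genes share the 6 libraries, including both replicates 1, which departed with GC content, and r without those libraries is not given. The genes were picked as the highest of 10448, so their r is a description, and regulation in common was not tested. Among the 10 genes themselves, *Itgb1* and *Itgav* had the highest r (0.934), and *Itga5* and *Ptk2* the lowest (-0.955).

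Around the 10 genes, 98 further genes of integrin adhesion were listed in 5 groups, and 76 of them were measured. With limma 0 of the 76 were called in either direction (0.65% of all genes), also with the replicate block and with the block and the GC correction, and 0 had an unadjusted p under 0.05. The groups did not overlap in 2 of them (2.63%, against 4.02% of all genes), which were *Ilk*, a scaffold of the beta tail, and *Fyn*, a Src family kinase. *Ilk* had 28.4, 28.6 and 30.0 FPKM without C3G and 36.8, 30.4 and 30.4 FPKM with C3G (log2 difference 0.16, with p = 0.336 by limma and 0.1 by exact permutation), and with replicates 2 and 3 only the difference was 0.05. *Fyn* had 6.07, 6.78 and 6.54 FPKM without C3G and 5.91, 5.90 and 5.64 FPKM with C3G (log2 difference -0.13, with p = 0.398 by limma and 0.1 by exact permutation). Both genes are named because their groups did not overlap, which fixes the exact permutation p at 0.1, so it adds nothing further.

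Of 17 other integrin subunits 7 were measured. *Itga10*, a collagen receptor subunit, was the highest, at 6.43 ± 1.04 FPKM (SD, n = 3) in control cells and 7.19 ± 1.39 FPKM (SD, n = 3) with C3G. Its mean over the 6 libraries, 6.81 FPKM, was close to that of *Ptk2* (6.83 FPKM) and above that of *Itga6* (4.97 FPKM), and it was not counted in the collagen-binding share. *Itgb7* had 5.62, 4.20 and 2.89 FPKM without C3G and 4.28, 3.66 and 2.71 FPKM with C3G. *Itga2b* had 1.61, 0.865 and 1.05 FPKM without C3G and 1.27, 0.806 and 0.862 FPKM with C3G. Control replicate 1 was the highest library for both, and the groups overlapped. *Itgb2*, the leukocyte beta subunit, and 9 alpha and beta subunits were not analysed here. Of 21 activators and adaptors 18 were measured, led by *Flna*, *Actn1* and *Actn4*, which bind actin, and their log2 fold changes ran from -0.22 (*Actn4*) to 0.40 (*Rsu1*) with a median of 0.05. With replicates 2 and 3 only *Actn4* was at -0.12 and *Rsu1* at 0.11. Of 26 signalling genes 25 were measured, led by the small GTPases *Cdc42*, *Rac1* and *Rap1b*, and 17 had a log2 fold change above 0. The highest was that of the integrin-activating GTPase *Rap1a*, at 0.45, and with replicates 2 and 3 only it was -0.016. The smallest limma p of these 25 was that of the adaptor *Crk* (log2 difference -0.39, with p = 0.103 by limma and 0.2 by exact permutation), at -0.17 with replicates 2 and 3 only.

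Of 9 genes of integrin inhibition and traffic 6 were measured, led by *Rab21*, *Nisch* and *Snx17*, with log2 fold changes from -0.14 (*Snx17*) to 0.41 (*Dab2*), which were -0.05 and 0.07 with replicates 2 and 3 only. Of 25 matrix ligands 20 were measured, led by *Col1a1*, *Fn1* and *Col1a2*. *Fn1*, the ligand of the *Itga5* receptor, had 1471, 1469 and 1505 FPKM without C3G and 1446, 1516 and 1678 FPKM with C3G (log2 difference 0.06, with p = 0.773 by limma and 0.6 by exact permutation). *Col1a1* had 4432, 942 and 1221 FPKM without C3G and 1478, 923 and 1246 FPKM with C3G, and its log2 difference of -0.53 (p = 0.395 by limma and 0.7 by exact permutation) was the lowest of the ligands. With replicates 2 and 3 only it was -0.00088. The highest of the ligands was *Vcam1*, at 0.41, and with replicates 2 and 3 only it was 0.05. Of the 20 ligands 12 had a log2 fold change above 0. Control replicate 1 was high in the ligand *Col1a1* and in *Itgb5*, and low in *Itgb1*.

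**Figure D5:**
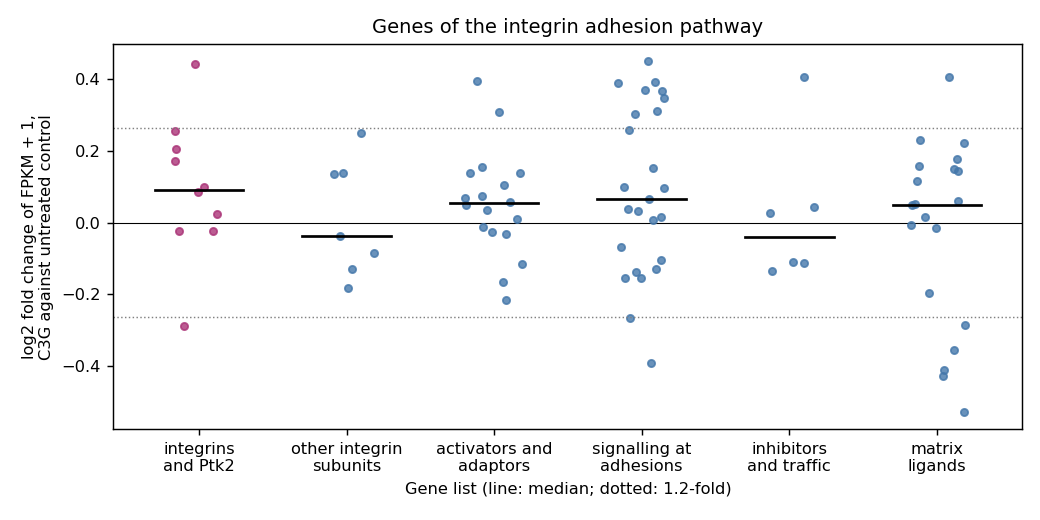
log2 fold change of FPKM + 1, C3G against untreated control, of each measured gene of integrin adhesion by list, with medians as lines and a fold change of 1.2 as dotted lines. The medians of the lists lie between -0.04 and 0.09, and 0 genes were called with limma.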

How the data were processed

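RNA from 6 MC3T3-E1 samples (3 control, 3 C3G) was sequenced from stranded libraries, and groups and replicate numbers were taken from the sample titles. For each gene and library the authors deposited an FPKM value from Ballgown. The submitters' processing notes name cutadapt, HISAT2 2.1.0, StringTie and STAR 2.5.2b without giving their roles. They also name the human build hg19, whereas the files hold mouse Ensembl identifiers. No scaling between libraries is stated. FPKM removes gene length by a model length that is not given, and it keeps any bias from base composition. The files list 11234 genes, and in each gene the larger of its 2 group means is at least 0.500 FPKM, so that genes under this level in both groups are not seen. Versions were stripped from the identifiers, and 11211 matched a symbol. Positions, transcripts and GC content (longest transcript) are from GENCODE M21 (GRCm38), whose versioned identifiers matched for 9812 genes.

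Values were fitted as log2(FPKM + 1) with limma 3.58.1 (lmFit, eBayes with trend) in R 4.3.3 over all genes, and the model held the group alone. A fold change on this scale understates changes of low genes such as *Itga1*. Single genes had a two-sided exact permutation test. Python 3.11.15 with scipy 1.17.1 made the other computations. Same-numbered libraries of the 2 groups departed together from their group means (r = 0.653, 0.580 and 0.440 across genes for replicates 1, 2 and 3, against -0.640 to 0.307 for other pairs), so the numbers were taken to pair the samples. The GC correction subtracted from each library a natural spline with 5 degrees of freedom of its deviation from the gene means on GC content. The alternatives were a pseudocount of 0.1, a minimum mean FPKM of 1, quantile normalization, median centring, an ordinary linear model, the replicate block, the GC correction with and without the block, replicates 2 and 3 only, and leaving out each library. The genes named are the 10 members, the 3 highest genes and any called gene of each list, and the 5 genes most like *Itgb1* and *Itgav*. Genes at the ends of a list's range, *Ilk*, *Fyn*, *Crk*, *Sp7*, *Cd68* and *Cdh1* were chosen for naming with their values in view. The members and lists were chosen with earlier results of these data known.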

Additional observations from a re-analysis of the deposited data

How the results depend on the processing

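Under the 15 alternatives to the fit, 0 of 149 values of the 10 genes were called, and 4 genes (*Itgb3*, *Itga1*, *Itga11* and *Itga3*) kept their direction in every alternative that tested them. *Itga1* was not tested with the minimum mean FPKM of 1. With 1 library left out, the log2 fold changes of these 4 genes ranged from 0.22 to 0.61 in *Itgb3* and from 0.091 to 0.30 in *Itga1*. They ranged from 0.088 to 0.11 in *Itga11* and from 0.11 to 0.34 in *Itga3*. *Itga5* turned to -0.041 with median centring, *Itgav* to -0.075 with the GC correction (-0.075 also when the block was added), and *Itgb1* to -0.089 with replicates 2 and 3 only. When 1 library was left out, the log2 fold change ranged from -0.23 to 0.40 in *Itgb1*, from -0.51 to 0.035 in *Itgb5*, from -0.12 to 0.25 in *Itgav*, from -0.10 to 0.20 in *Itga5*, from -0.079 to 0.064 in *Itga6* and from -0.12 to 0.032 in *Ptk2*. The difference in share ranged from -0.35 to 0.91 percentage points for collagen-, from -0.40 to 2.85 for laminin- and from -3.52 to 0.30 for RGD-binding subunits. *Itgb3* over *Itgav* ranged from -0.23 to 0.049.

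Over all genes the calls numbered 100 higher and 69 lower with the replicate block, 119 and 127 with the GC correction and the block, and 88 and 103 with replicates 2 and 3 only. There were 68 lower with the GC correction and 16 lower with the ordinary linear model. With each library left out they ranged from 23 to 77 higher and from 13 to 68 lower. The causes were not tested. The replicate block changed no call among the 10 genes. Depth is unknown.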
